A study of Mus musculus with 13 samples.

Results

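Inhibitory and checkpoint receptors were followed in regulatory T cells, the Foxp3-dependent CD4 T cells that restrain immune responses. The genes were 10 rows chosen by name from the deposited expression table: Ctla4, Pdcd1, Lag3, Havcr2, Tigit, Klrg1, Klrc1, Cd96, Cd160 and Cd200. All 10 were found among 24300 genes, and all 10 passed the filter on low counts, Klrc1 only through the genotype in which it was higher. Cells positive for YFP and CD25 were sorted from CD4 T cells of male C57BL/6 mice. The labels describe this sort for the ATAC cells under a heading they share with RNA, and do not name the tissue of the RNA cells separately. Both genotypes carried Cre recombinase and YFP under the Foxp3 gene (Foxp3Cre-YFP, called WT), so Cre acts in cells that have expressed Foxp3. The second genotype, called CAT, also carried Ctnnb1flex3, an allele from which Cre removes exon 3 of Ctnnb1, leaving a beta-catenin that is known to escape degradation. At 21 days of age, RNA was sequenced in 3 libraries of each genotype. Open chromatin, found by ATAC-seq as the sites a transposase can reach, was mapped in 3 WT and 2 CAT libraries. ChIP-seq of the transcription factor TCF1 covered 1 WT library from lymph nodes and spleen of mice of 10 to 12 weeks, whereas the ATAC cells came from lymph nodes at 21 days. The labels do not say whether libraries of a genotype came from separate mice, and the spread that the p-values rest on may be technical.

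These receptors sit on the surface of activated T cells and NK cells and limit their responses, some through tyrosine motifs in the cytoplasmic tail that recruit phosphatases, others by taking ligands away from stimulatory receptors. CTLA-4, the best studied of them in regulatory T cells, binds the B7 ligands CD80 and CD86 more strongly than the stimulatory receptor CD28 does and can remove them from antigen-presenting cells. TIGIT and CD96 likewise compete with the stimulatory receptor CD226 for ligands of the nectin family, and TIGIT and KLRG1 mark effector regulatory T cells.

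The start of 4 of these genes carries findings described further on. The windows run from 250 bases before to 50 bases after the gene start, which is position 251, and come from RefSeq on GRCm38.p6, the assembly behind mm10. In the windows of Ctla4 (chr1:60908775-60909074, plus strand) and Tigit (chr16:43664135-43664434, minus strand) capitals mark bases inside a deposited TCF1 peak. In those of Pdcd1 (chr1:94052504-94052803, minus strand) and Cd96 (chr16:46120199-46120498, minus strand) no TCF1 peak was called, and capitals mark bases inside an ATAC peak in all 5 libraries. All are written 5′ to 3′ on the strand of the gene.
Ctla4: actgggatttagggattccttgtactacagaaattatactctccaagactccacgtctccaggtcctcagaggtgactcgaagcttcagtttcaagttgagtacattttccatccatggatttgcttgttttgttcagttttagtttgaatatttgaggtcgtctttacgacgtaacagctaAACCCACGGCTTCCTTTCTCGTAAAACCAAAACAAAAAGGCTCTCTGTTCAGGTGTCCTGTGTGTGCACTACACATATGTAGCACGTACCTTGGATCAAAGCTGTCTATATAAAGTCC
Tigit: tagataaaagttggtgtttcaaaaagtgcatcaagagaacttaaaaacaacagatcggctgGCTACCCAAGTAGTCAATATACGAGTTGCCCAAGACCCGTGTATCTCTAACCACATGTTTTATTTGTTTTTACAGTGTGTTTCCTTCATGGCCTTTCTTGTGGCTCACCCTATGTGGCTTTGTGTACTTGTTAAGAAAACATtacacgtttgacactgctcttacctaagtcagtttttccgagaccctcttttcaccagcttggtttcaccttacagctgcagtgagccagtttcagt
Pdcd1: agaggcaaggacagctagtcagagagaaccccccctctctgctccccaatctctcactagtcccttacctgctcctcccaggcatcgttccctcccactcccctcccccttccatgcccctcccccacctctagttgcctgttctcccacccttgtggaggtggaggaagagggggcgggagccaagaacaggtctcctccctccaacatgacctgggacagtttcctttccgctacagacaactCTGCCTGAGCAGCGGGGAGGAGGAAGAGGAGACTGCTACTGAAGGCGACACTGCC
Cd96: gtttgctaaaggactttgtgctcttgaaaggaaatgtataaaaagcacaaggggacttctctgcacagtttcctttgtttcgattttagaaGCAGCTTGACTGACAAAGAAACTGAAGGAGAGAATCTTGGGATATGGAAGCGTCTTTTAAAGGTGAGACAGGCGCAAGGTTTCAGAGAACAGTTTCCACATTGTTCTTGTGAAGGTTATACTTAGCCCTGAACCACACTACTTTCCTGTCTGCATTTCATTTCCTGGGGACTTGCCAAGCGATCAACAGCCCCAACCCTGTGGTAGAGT
Both strands were searched for the TCF/LEF core letters CTTTGA, for their variant CTTTGT, which shares the first bases, and for the RUNX letters TGTGGT. Of 32851 RefSeq windows of the same length, 16.0% held CTTTGA, 18.7% held CTTTGT and 16.8% held TGTGGT. The Ctla4 window held 1 CTTTGA, on the opposite strand at position 278 and inside the TCF1 peak. The Tigit window held 1 CTTTGT at position 179 and 1 TGTGGT on the opposite strand at position 111, both inside the TCF1 peak and apart from each other. The Cd96 window held CTTTGT at positions 14, 73 and 104, the last on the opposite strand, and TGTGGT at positions 223 (opposite strand) and 290, with no overlap among them. The Pdcd1 window held none of these letters. Entries were found for 8 of the 10 genes; Lag3 and Klrg1 had none.

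The RNA libraries held 24124086 to 31527245 fragments. The sorted cells had the markers of their label, with Foxp3 at 28.1 ± 3.96 FPKM in WT and 43.1 ± 1.67 in CAT (fragments scaled by transcript length and library depth in Cuffdiff; mean ± SD, n = 3), Cd4 at 192 and 213 and Cd3e at 119 and 137. Il2ra, the gene of the sort marker CD25, was higher in CAT, at 70.95 ± 10.1 FPKM in WT and 194 ± 14.1 in CAT (log2 change 1.44 ± 0.088). Fragments fell on 19682 and 19776 genes in WT replicates 1 and 3 against 15764 to 16079 in the other 4 libraries. CAT replicate 3 was the CAT library nearest to the WT mean at 55.4% of all genes called below. Over all tested genes 25.5% were called higher in CAT and 23.5% lower. Of 17 genes that mark CD8 T and NK cells, which include Klrc1 and Cd160, 13 were tested, 10 were higher in CAT and 1 lower. Their summed level was 41.1 to 46.0 FPKM in the WT libraries and 1685 to 4422 in the CAT libraries, most of it from Gzma. Both CD8 genes rose, Cd8a from 0.0860 to 0.331 FPKM (log2 change 1.89 ± 0.50, adjusted p = 0.0117) and Cd8b1 from 6.88 to 19.7 FPKM (1.53 ± 0.16). Cd8a rested on 14, 4 and 5 fragments in WT and 20, 28 and 33 in CAT. Like Klrc1, Gzma, Gzmk and Ncam1, it passed the filter on low counts only with its CAT libraries. All of these are among the 10 higher marker genes, so their entry into that count already depended on their level in CAT. The 1 lower gene, Xcl1, passed only with its WT libraries. Ncr1, an NK cell receptor gene, was at 0.0156 and 0.0800 FPKM and was not tested. None of the 17 was at 0 in every library. Of 2 gamma delta T cell markers in the table, Sox13 and Blk, none was tested. Their summed level was at most 0.292 FPKM in any library. Trdc and the Tcrg constant region genes, also sought, were not among the genes used, so the gamma delta receptor itself could not be read. Markers of B cells summed to 15.7 to 19.4 FPKM in WT and 5.34 to 9.97 in CAT, with 1 of 2 tested genes lower. Myeloid markers summed to 12.1 to 15.1 and 4.82 to 9.05 FPKM, with 3 of 5 tested genes lower and 2 higher. Of the lower ones, Csf1r and Adgre1 passed the filter only with their WT libraries. The part of other cells in the results below was not tested.

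Of the 10 receptor genes 6 were higher in CAT (Ctla4, Lag3, Havcr2, Tigit, Klrg1 and Klrc1), 3 were lower (Pdcd1, Cd96 and Cd200) and Cd160 was not called (3 libraries per genotype, Benjamini-Hochberg adjusted p below 0.05 in edgeR's quasi-likelihood test). Over all 13193 tested genes 25.5% were called higher and 23.5% lower. The median log2 change of the receptor genes was 1.98 against 0.001 over all tested genes. The receptor genes were chosen with earlier results of these data known, so this contrast is a description only. In counts scaled to library size, all CAT libraries lay above all WT libraries at 6 receptor genes and below them at 3, against 30.1% and 29.1% of tested genes. In these sorted pools, fewer cells that express a gene and less RNA per cell cannot be told apart. Each change is given as log2 of CAT over WT with a standard error derived from edgeR's F statistic, and so approximate.

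The order of the genes by level differed between the genotypes. In WT the mean levels ran from Ctla4 (319 FPKM) through Cd96 (161), Pdcd1 (43.9), Cd200 (29.5), Tigit (12.3), Lag3 (9.80), Cd160 (8.66), Klrg1 (5.31) and Havcr2 (0.488) to Klrc1 (0.0755). Only Lag3 and Cd160 were neighbours in this order whose libraries overlapped. In CAT the order was Ctla4 (1265 FPKM), Tigit (83.3), Klrg1 (76.9), Lag3 (40.4), Cd200 (21.2), Cd96 (19.7), Pdcd1 (16.1), Cd160 (8.22), Havcr2 (5.36) and Klrc1 (1.39). There Tigit overlapped Klrg1, Cd200 overlapped Cd96, Cd96 overlapped Pdcd1, and Cd160 overlapped Havcr2. Cd96 thus went from place 2 to place 6 and Klrg1 from place 8 to place 3. Ctla4 made up 53.3% to 54.7% of the summed FPKM of the 10 genes in the WT libraries and 78.6% to 85.8% in the CAT libraries. Without Ctla4 the sums overlapped, at 255.6 to 286.5 FPKM in WT and 238.7 to 305.7 in CAT.

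**Figure D1:**
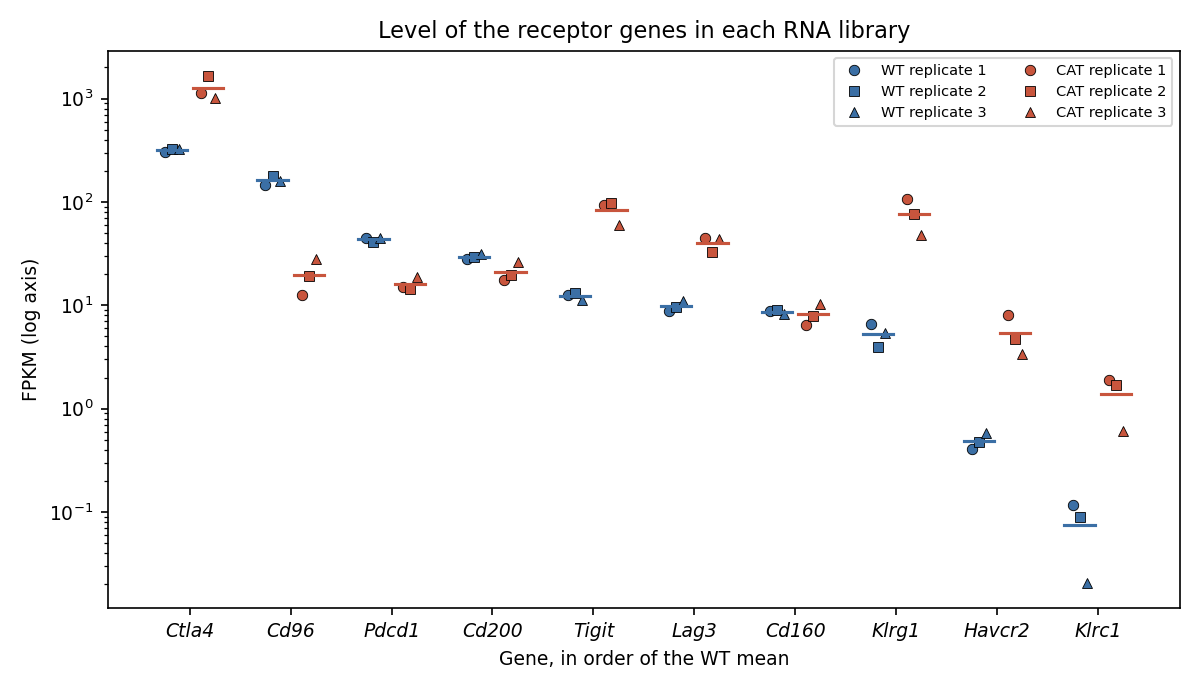
FPKM of each receptor gene (log axis) in the 3 WT and 3 CAT RNA libraries, with a marker per replicate and a bar at the mean, in order of the WT mean. Ctla4 is the highest gene in both genotypes, Cd96 falls from 161 to 19.7 FPKM, and the Cd160 libraries overlap.

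Ctla4, the competitor of CD28, was at 303, 326.5 and 328.5 FPKM in the WT libraries and at 1125, 1651 and 1020 FPKM in the CAT libraries. Every CAT library was above every WT library, and the spread was wider in CAT. The log2 change was 1.95 ± 0.17, a 3.87-fold rise (edgeR adjusted p = 2.13e-05, n = 3 per genotype), and by level the gene moved from place 265 to place 85 among all genes with a value above 0. The B7 receptor PD-1, which recruits the phosphatase SHP-2 and is encoded by Pdcd1, went the other way. Pdcd1 was at 45.2, 41.4 and 45.2 FPKM in WT and at 14.95, 14.3 and 18.9 FPKM in CAT. The groups did not overlap, and the log2 change was -1.44 ± 0.11, 2.71-fold lower in CAT (adjusted p = 1.38e-05).

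The partners of these receptors were measured in the same cells, although the ligands are best known from antigen-presenting cells. Both genes of the PD-1 ligands were higher in CAT. Pdcd1lg2, encoding PD-L2, rose from 7.93 ± 0.255 to 21.0 ± 1.095 FPKM (log2 change 1.39 ± 0.091) and Cd274, encoding PD-L1, from 17.2 ± 2.30 to 25.5 ± 1.67 FPKM (0.54 ± 0.093). The B7 ligand gene Cd80 rose from 1.35 ± 0.427 to 4.03 ± 1.44 FPKM (adjusted p = 0.00512), while Cd86 stood at 0.04 ± 0.17 and was not called. The stimulatory receptor gene Cd28 fell from 113 ± 20.6 to 61.9 ± 6.62 FPKM (log2 change -0.90 ± 0.080), whereas Icos, its relative, rose from 112 ± 13.1 to 880 ± 168 FPKM (2.94 ± 0.16). Within a library, the ratio of Ctla4 to Cd28 in FPKM was 3.35, 2.50 and 2.77 in WT and 20.6, 25.9 and 15.1 in CAT.

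Tigit and Cd96, which share ligands with CD226, moved in opposite directions. Tigit was at 12.5, 13.2 and 11.3 FPKM in WT and at 92.8, 97.1 and 60.05 FPKM in CAT. Every CAT library was higher, with CAT replicate 3 the lowest of them, and the log2 change was 2.76 ± 0.18, a 6.78-fold rise (adjusted p = 5.41e-06). Cd96 was at 145, 179.5 and 159 FPKM in WT, where it was the second most abundant of the receptors, and at 12.4, 19.0 and 27.8 FPKM in CAT. The groups were far apart and the log2 change was -3.08 ± 0.20, 8.47-fold lower in CAT (adjusted p = 5.22e-06) and place 108 of 13193 tested genes from the lowest change. Cd226 itself fell from 73.5 ± 8.40 to 23.1 ± 4.33 FPKM (log2 change -1.72 ± 0.11). The ligand gene Pvr, encoding CD155, fell slightly (-0.28 ± 0.10, adjusted p = 0.049) and Pvrl2, encoding nectin-2, fell from a low level of 0.621 to 0.182 FPKM (-1.59 ± 0.32). Pvrl2 passed the filter on low counts only with its WT libraries. The ratio of Tigit to Cd226 was 0.188, 0.160 and 0.157 in the WT libraries and 5.01, 4.13 and 2.21 in the CAT libraries, so Cd226 was the more abundant in every WT library and Tigit in every CAT library. The ratio of Tigit to Cd96 was 0.0861, 0.0737 and 0.0709 in WT and 7.46, 5.10 and 2.16 in CAT.

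**Figure D2:**
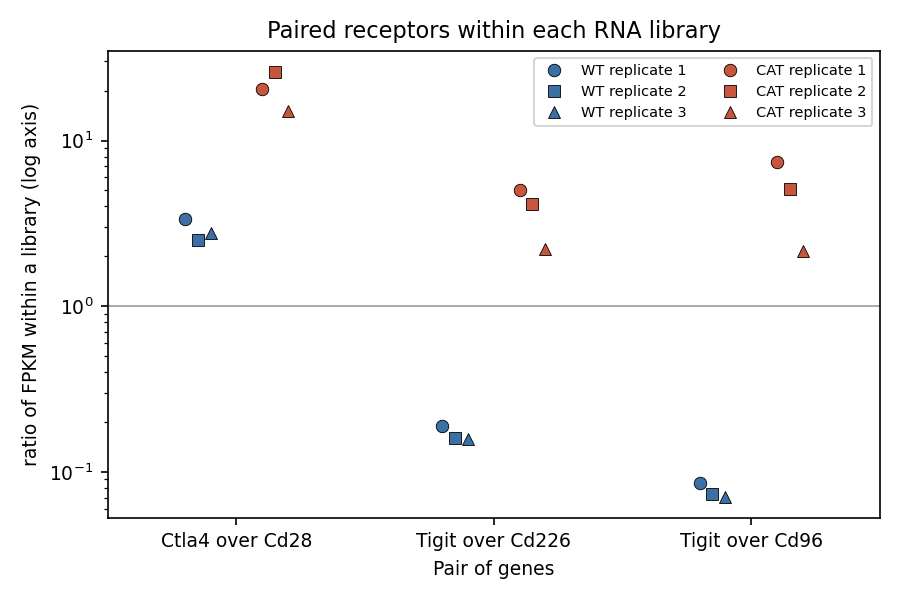
Ratio of FPKM between paired receptors within each RNA library (log axis), with a marker per replicate of WT and CAT and a line at equal levels. The ratios of Tigit to Cd226 and of Tigit to Cd96 are below 1 in every WT library and above 1 in every CAT library.

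Lag3, a CD4-like receptor that binds MHC class II, was at 8.82, 9.69 and 10.9 FPKM in WT and at 44.8, 32.8 and 43.7 FPKM in CAT. The groups did not overlap and the log2 change was 2.01 ± 0.16, a 4.035-fold rise (adjusted p = 1.17e-05). Of the proteases that shed LAG-3 from the cell surface, Adam17 was higher (0.43 ± 0.070) and Adam10 was not called (0.07 ± 0.071). Lgals3, whose product galectin-3 is among the reported LAG-3 ligands, rose from 2.49 ± 0.690 to 29.4 ± 11.5 FPKM (log2 change 3.56 ± 0.30), and the ligand gene Fgl1 was listed at 0 in all libraries.

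Havcr2, which encodes TIM-3, was at 0.403, 0.481 and 0.581 FPKM in WT and at 7.995, 4.69 and 3.40 FPKM in CAT. These values rest on 34, 40 and 42 fragments in WT and on 687, 294 and 254 in CAT, with CAT replicate 1 the highest. The log2 change was 3.51 ± 0.38 (adjusted p = 8.79e-05), or 2.96 without CAT replicate 1. On the log2(FPKM + 1) scale in limma, which understates changes of low genes, it was 2.03. In the authors' deposited table this difference was not significant, with a q-value of 0.282 at a locus that spans 46193848 to 46589232 on chromosome 11 and so extends well past the gene. Whether the wide locus bears on that q-value, or on the Havcr2 fragments and FPKM used here, was not tested. Of the other receptor genes that table called all but Cd160 (q-value 0.693). Lgals9, encoding the TIM-3 ligand galectin-9, was at 53.0 and 45.7 FPKM and was not called (-0.24 ± 0.12), and Bag6, whose product holds the tail of TIM-3, stood at -0.05 ± 0.089 and was not called either.

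The C-type lectin receptors had large rises from low levels. Klrg1, an inhibitory receptor for cadherins, was at 6.635, 3.91 and 5.375 FPKM in WT and at 107, 76.0 and 48.0 FPKM in CAT, again lowest in CAT replicate 3. Its log2 change was 3.87 ± 0.31, a 14.6-fold rise (adjusted p = 1.46e-05), at place 149 from the highest change. Cdh1, which encodes the KLRG1 ligand E-cadherin, fell from 0.190 to 0.0222 FPKM in these cells (log2 change -3.01 ± 0.48). Cdh1 passed the filter on low counts only with its WT libraries. Klrc1, which encodes NKG2A, an inhibitory receptor for the class Ib molecule Qa-1, rested on 7, 5 and 1 fragments in WT and 118, 74 and 30 in CAT. It was at 0.116, 0.0902 and 0.0208 FPKM in WT and at 1.90, 1.68 and 0.603 FPKM in CAT. Klrc1 passed the filter on low counts through its CAT libraries alone, so its entry into the test already depended on its level there. Its log2 change was 4.18 ± 0.66 (adjusted p = 7.31e-04), from 3.72 without CAT replicate 1 to 4.75 without WT replicate 1. In limma on log2(FPKM + 1) with no filter it was 1.11 (adjusted p = 0.0353). Its relatives Klrc2 and Klrc3 had no fragment in WT and 22 and 9 fragments over the CAT libraries, and as these genes share sequence the split of reads between them is uncertain. Klrd1, encoding CD94, the partner NKG2A needs at the surface, had 11 fragments over the WT and 49 over the CAT libraries, too few to be tested. H2-T23, which encodes Qa-1, was at 185 and 190 FPKM and was not called (0.08 ± 0.084).

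Cd160 and Cd200 changed least. Cd160, a receptor for HVEM found on NK and CD8 T cells, was at 8.80, 8.94 and 8.25 FPKM in WT and at 6.50, 7.85 and 10.3 FPKM in CAT. CAT libraries lay on both sides of the WT libraries, and the log2 change was -0.13 ± 0.16 (adjusted p = 0.529). Tnfrsf14, which encodes HVEM, rose by 0.36 ± 0.093. Cd200 encodes a surface ligand rather than a receptor, and signals inhibition through CD200R on other cells. It was at 28.2, 29.3 and 31.0 FPKM in WT and at 17.7, 19.8 and 26.0 FPKM in CAT, with CAT replicate 3 nearest to WT but still below it. The log2 change was -0.52 ± 0.12, 1.44-fold lower in CAT (adjusted p = 0.00609). That call was lost when WT replicate 2 stood alone for its genotype and the CAT libraries gave the spread (-0.43, adjusted p = 0.135). It was also lost in limma on log2(FPKM + 0.1) (adjusted p = 0.0542) and on log2(FPKM + 1) with no filter (0.0873). Cd200r1 rose from 20.6 ± 1.64 to 36.3 ± 6.73 FPKM (log2 change 0.79 ± 0.13).

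**Figure D3:**
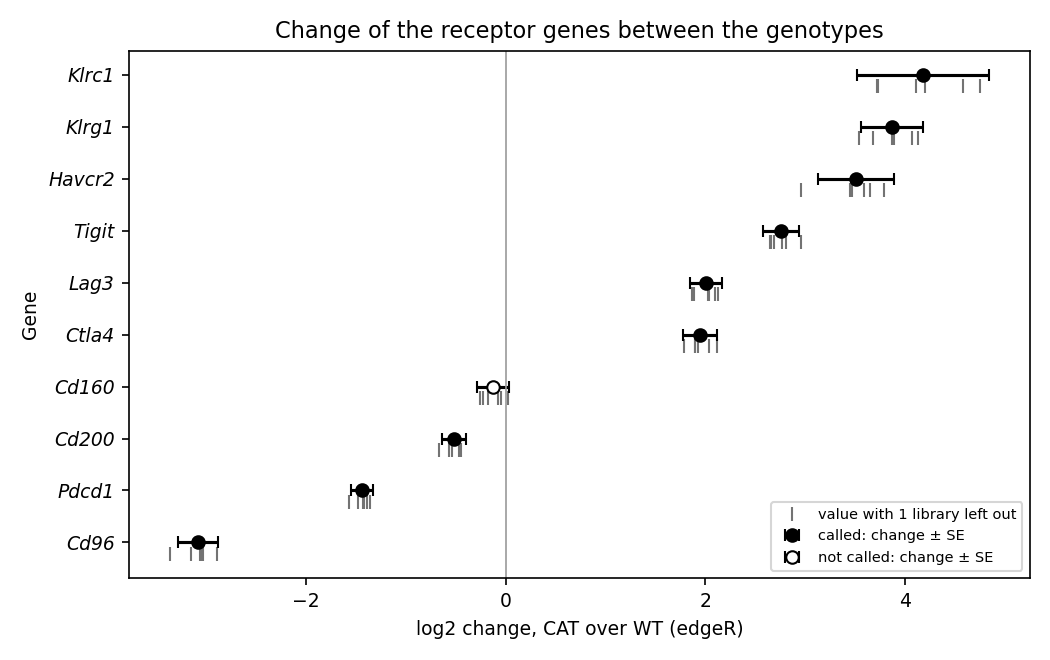
Log2 change of each receptor gene, CAT over WT, from edgeR with its approximate SE (filled where called, open where not) and, as ticks, the 6 values with 1 RNA library left out. Cd160 is the only gene whose ticks reach both sides of 0.

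At 8 of the 9 called receptor genes, CAT replicate 3 was the CAT library nearest to the WT mean, against 55.4% of all called genes; at Lag3 it was CAT replicate 2. All 9 calls were kept without CAT replicate 3, where the changes were 2.12 for Ctla4, 2.96 for Tigit, 4.13 for Klrg1, -3.36 for Cd96 and -0.67 for Cd200. They were kept without each other library too. By pattern over the libraries (root mean square difference of log2 CPM over the 6 libraries, each gene centred on its WT mean, among 8627 genes), the genes closest to Ctla4 were Aurka (0.104), Ubtd1 (0.114) and Hist1h4f (0.119), and those closest to Pdcd1 were Mib2 (0.087), Card6 (0.098) and Btg2 (0.101).

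The lists of related genes went both ways. Over all tested genes 25.5% were called higher and 23.5% lower, and the counts of the lists were not tested against these shares. Of 18 other inhibitory receptor genes listed, 11 were tested, with 2 higher, 4 lower and a median log2 change of -0.22. Those that fell were Cd72, a partner of CD100 (-3.25 ± 0.32), Pecam1, encoding the ITIM-bearing adhesion molecule CD31 (-1.57 ± 0.11), Cd101 (-0.52 ± 0.089) and 4632428N05Rik, the gene of VISTA (-0.28 ± 0.10, adjusted p = 0.0444). Those that rose were Lilrb4a, an ITIM receptor (1.69 ± 0.31), and Slamf6, which signals through SAP (1.06 ± 0.12). Btla, the other HVEM receptor, was at 90.7 and 88.1 FPKM and was not called. Without CAT replicate 3 the count of lower genes was 7. Of 14 tested ligand genes 7 were higher and 3 lower, with a median of 0.27. Besides those given above Pvrl1, encoding nectin-1, rose (2.54 ± 0.29), and passed the filter on low counts only with its CAT libraries. The count of lower ligand genes was 5 without CAT replicate 3 and 1 with WT replicate 2 alone for WT. In limma on log2(FPKM + 1) it was 0 with the filter and 2 with no filter. Pvrl2 and Cdh1 were below 1 FPKM in every library, so that filter left them out and they were not tested there.

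Of 14 tested costimulatory receptor genes 8 were higher and 5 lower, against 25.5% and 23.5% of all tested genes, with a median of 0.61. Beside Icos the rises included Klrk1, encoding NKG2D (3.27 ± 0.80, from 0.0360 FPKM), Crtam, a nectin-like receptor (1.82 ± 0.26), and Tnfrsf4, encoding OX40 (162 ± 16.1 to 473 ± 62.8 FPKM, 1.53 ± 0.12). Klrk1 passed the filter on low counts only with its CAT libraries. Beside Cd226 and Cd28 the decreases included Tnfrsf25, encoding DR3 (-1.35 ± 0.11). Of 26 adaptors, phosphatases and trafficking genes, all tested, 10 were higher, 4 lower and 12 not called, with a median of 0.18. Ptpn6, the gene of the phosphatase SHP-1, fell from 95.2 ± 3.42 to 41.9 ± 11.1 FPKM (-1.16 ± 0.18), while Ptpn11, the gene of SHP-2, was at 24.4 and 26.7 FPKM and was not called (0.14 ± 0.073). Higher were Dok1 (0.99 ± 0.15), an adaptor that dampens Ras signalling, the phosphatase gene Ptpn22 (0.85 ± 0.099), the ubiquitin ligase gene Cblb (0.82 ± 0.088) and Def6 (0.72 ± 0.11), which acts with Lrba in returning CTLA-4 to the surface. Lrba was not called (0.18 ± 0.092). The count of lower genes in this list was 2 without CAT replicate 2 and 2 with WT replicate 2 alone for WT.

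Of 26 transcription factor genes known to act on such receptors, all tested, 13 were higher and 7 lower. All tested genes stood at 25.5% and 23.5%, and the median of this list was 0.55. Eomes (5.00 ± 0.17) and Prdm1, encoding Blimp-1 (3.30 ± 0.099, from 4.27 ± 0.552 to 42.6 ± 2.20 FPKM), rose most, followed by Id2 (2.14 ± 0.14). Id3 (-4.51 ± 0.23) and Tox (-2.40 ± 0.24), a factor known for its part in exhausted T cells, fell. Foxp3 rose by 0.59 ± 0.11. Tcf7, the gene of TCF1, was at 73.2 ± 5.05 FPKM in WT and 43.3 ± 19.05 in CAT (-0.76 ± 0.26, adjusted p = 0.0331). Its CAT libraries were at 31.4, 33.3 and 65.3 FPKM. CAT replicate 3 thus lay just below the lowest WT library, at 67.8 FPKM.

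**Figure D4:**
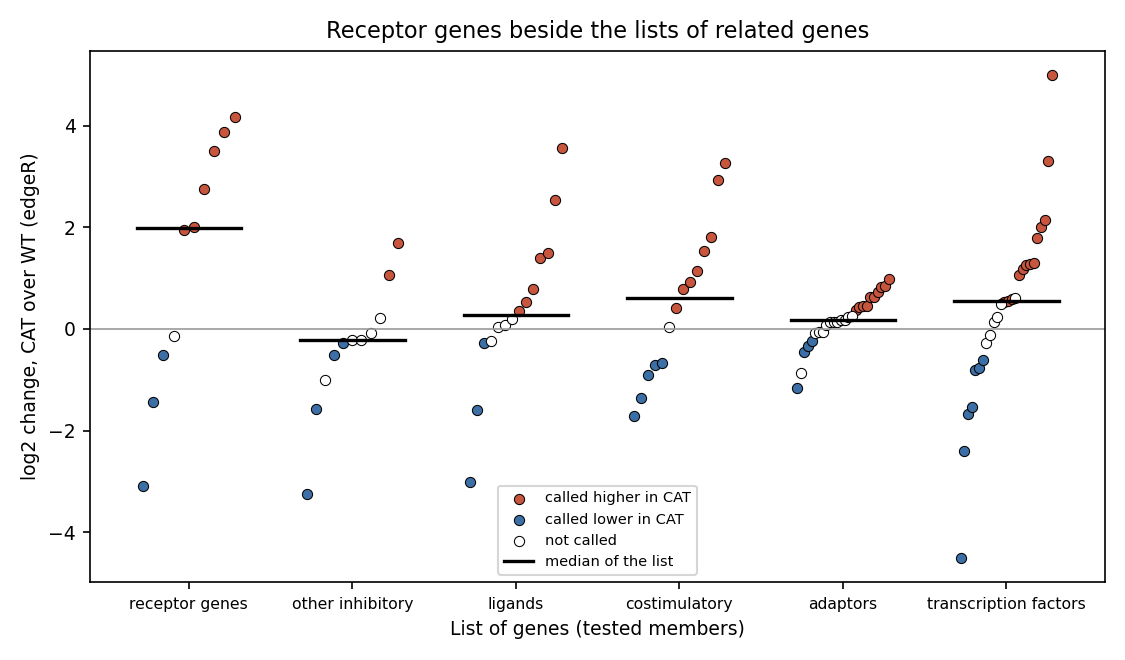
Log2 change, CAT over WT, of each tested gene of the receptor genes and of 5 lists of related genes, coloured by call, with a bar at the median of each list. The receptor genes have a median of 1.98, and the other medians lie between -0.22 and 0.61. The receptor genes and lists were chosen with earlier results of these data known.

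Open chromatin was compared by the presence of a called peak, at each gene span and 5 kb on each side. Each CAT list held fewer peaks than any WT list, of a lower median width, with 27129 and 29548 peaks of a median width of 254 bp against 33204 to 41197 peaks of 384 to 399 bp in WT. With 3 WT and 2 CAT libraries no exact test of a region can reach 0.05, so the regions are described without a test. The 10 loci held 44 joined regions. A peak in all 5 libraries was found at 13 of them, in every WT and no CAT library at 7 (called lost), and in every CAT and no WT library at 4 (called gained). Over all 29644 regions within 5 kb of tested genes the shares were 48.3%, 11.0% and 2.94%. All 13 regions open in every library had a lower mean peak width in CAT, as did 97.4% of such regions near tested genes, which share the same lists. TCF1 peaks lay at 5 of the 10 genes against 38.6% of tested genes, 6 peaks in all. Every one of the 6 overlapped a region open in all 5 ATAC libraries, as did 86.4% of the 5876 TCF1 peaks.

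At Ctla4 the only region open in every library was the one over the gene start (chr1:60908883-60909210), which held the TCF1 peak shown in capitals above. It was 314, 283 and 263 bp wide in WT and 227 and 167 bp in CAT. Lost regions were 3 within the gene (chr1:60910834-60911174, chr1:60911647-60911975 and chr1:60913310-60913706) and 1 beyond its far end (chr1:60920476-60920801). Of the receptor genes it had the most lost regions, 4 of the 7, while its RNA rose.

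At Pdcd1 regions at the gene start (chr1:94052202-94052770) and past the far end of the gene (chr1:94034833-94035978) were open in every library, and the second held both TCF1 peaks, 2730 and 3017 bp outside the span. A region inside the gene (chr1:94046557-94046850) and 1 centred at -1173 bp from the gene start (chr1:94053552-94053900) were lost, and here the RNA fell. Tigit kept 2 regions in all libraries, at its start with the TCF1 peak (chr16:43663942-43665182) and within the gene (chr16:43650400-43650834). Its lost region (chr16:43628537-43628937) lay where the RefSeq span overlaps that of Zbtb20.

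Gained regions lay at Klrc1, Klrg1 and Lag3, whose RNA rose. Klrc1 had no peak in any WT library and 2 gained regions, centred at -1659 bp (chr6:129680485-129680779) and 17447 bp (chr6:129661393-129661660) from the start in its RefSeq promoter window. Klrg1 had 1 gained region past the high-coordinate end of the gene (chr6:122284974-122285113) and no TCF1 peak, and the region at its low-coordinate end (chr6:122270226-122270470) had a peak in both CAT and 2 WT libraries. Lag3 had 1 gained region (chr6:124900488-124900700) and 2 open in every library, of which the nearer (chr6:124903545-124904219) held a TCF1 peak 535 bp outside the gene span. The other lies at the neighbouring gene Ptms. Havcr2 had 5 regions, none with a peak in more than 2 libraries, and the region at its start had peaks in WT replicates 2 and 3 and in no CAT library.

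Cd96 had the largest decrease in RNA and no lost region. Its start (chr16:46119571-46120744) and 2 regions inside the gene (chr16:46104583-46104875 and chr16:46107450-46107787) were open in all libraries, and no TCF1 peak was called there. The region at its start was 574, 747 and 1174 bp wide in WT and 359 and 437 bp in CAT. Cd200 kept 3 regions in all libraries, at its start, at its far end and inside the gene (chr16:45389198-45390217), the last with a TCF1 peak. Cd160 had 1 region (chr3:96812707-96814653), with peaks in all WT libraries and in CAT replicate 1. Peaks covered 1390, 964 and 1488 bp of it in WT and 135 bp in CAT replicate 1. WT replicates 1 and 2 each had 2 separate peaks there, joined through the longer peak of WT replicate 3.

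**Figure D5:**
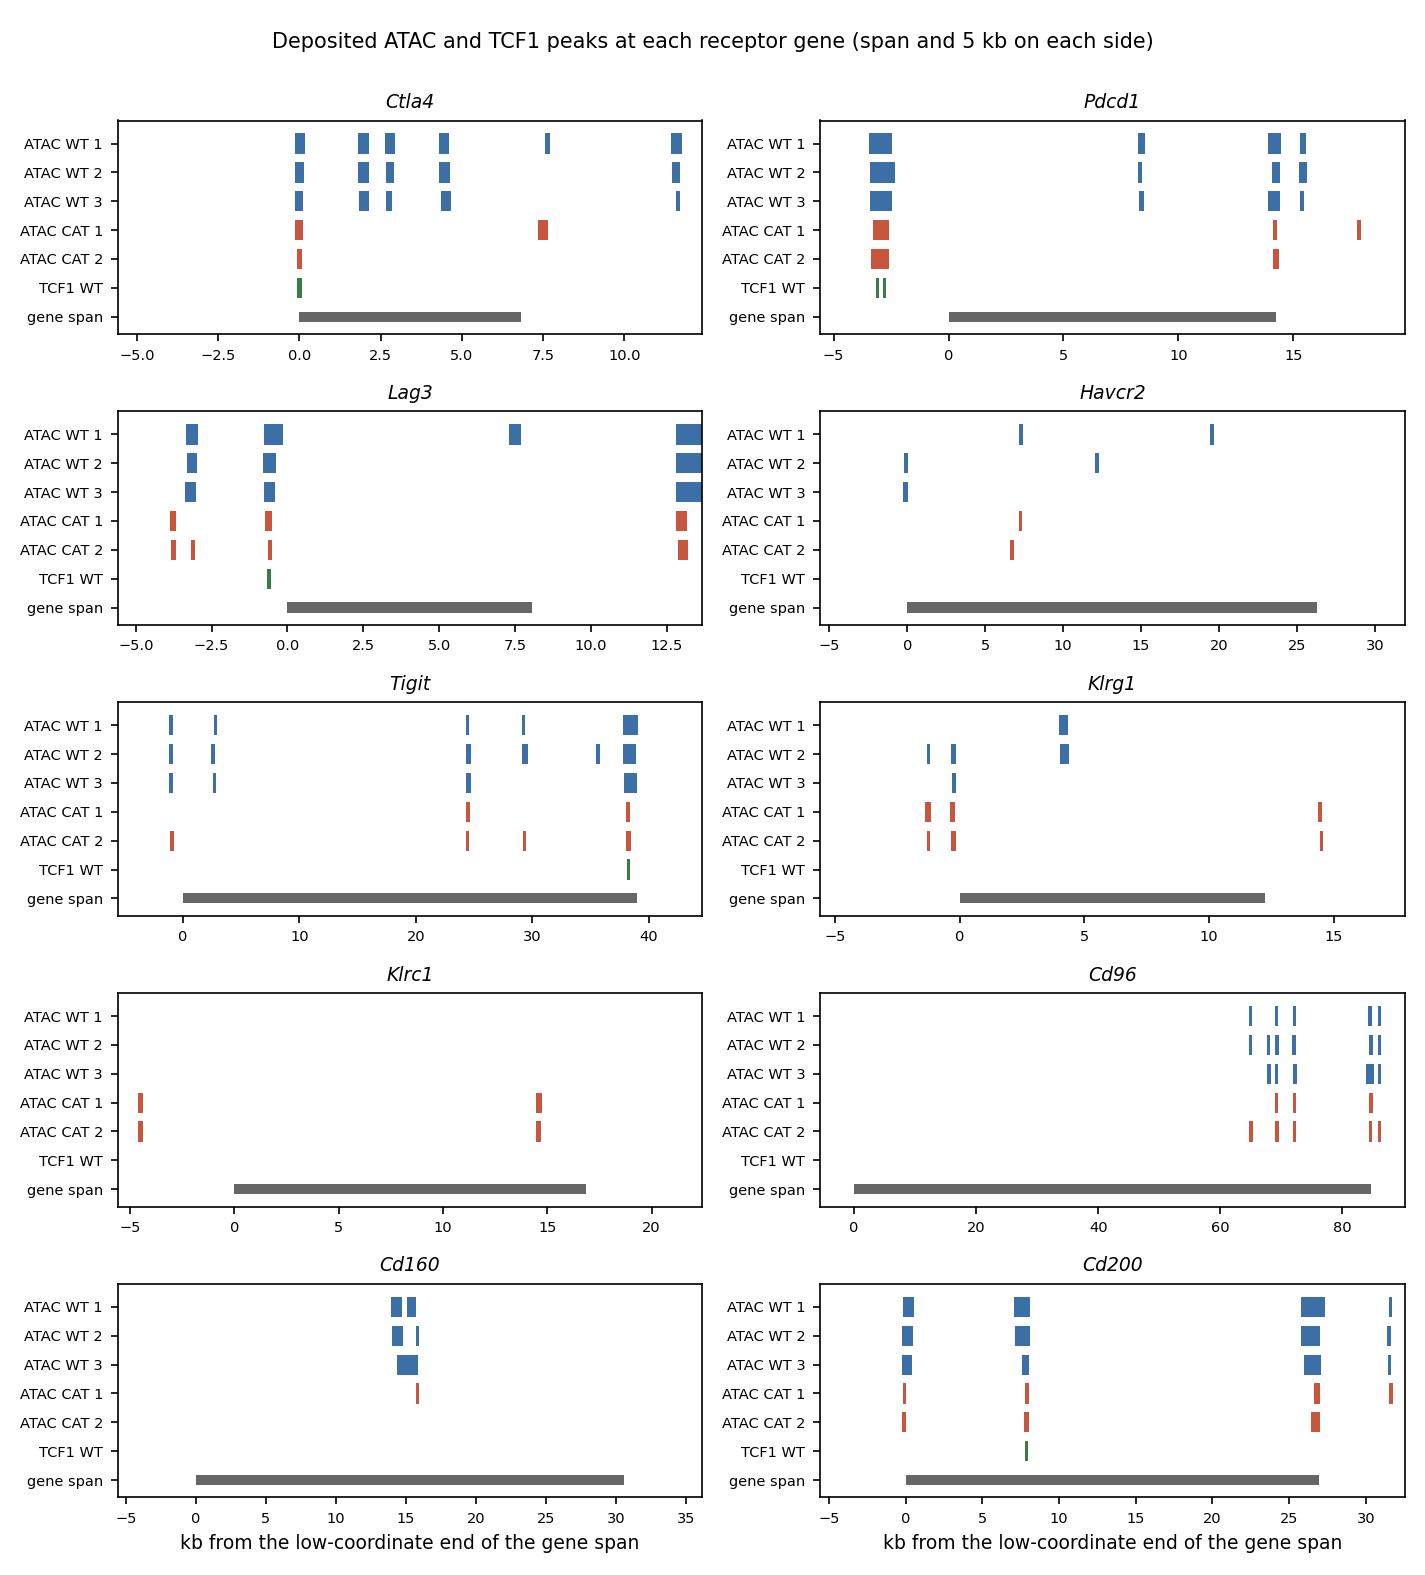
Deposited peaks at each receptor gene, by distance in kb from the low-coordinate end of the gene span (grey bar), 1 row per ATAC library and 1 for TCF1 in WT; the narrowest peaks are drawn slightly wider so that they can be seen, and at Lag3 the rightmost WT peaks run past the edge of the plot. Ctla4 shows 4 regions with peaks in the 3 WT libraries alone, Klrc1 2 regions in the CAT libraries alone, and every TCF1 peak lies where all 5 ATAC libraries have a peak.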

How the data were processed

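The RNA values are those of Cuffdiff, per the file headers: the authors deposited an estimated count of fragments for each gene in each library, 92.5% of them whole numbers (tolerance 1e-06). FPKM values scaled across libraries by the authors stand beside them. The authors' deposited table of the comparison, with group FPKM and q-values but no gene names, was joined to the receptor genes through the group FPKM (relative tolerance 0.001). Each ATAC peak list was deposited per library, with a pileup signal, a fold enrichment ratio and -log10 q values per the file headers; scores and coordinates seem not to match (rank correlation of width and pileup 0.0381 to 0.0547 across peaks), so scores served only in an alternative. The TCF1 list gives positions alone, read as BED. Bowtie, HOMER, MACS2 and mm10 are listed, per the submitters' processing notes. The RNA aligner, its annotation and the peak thresholds: not given in the sources used here. How deeply ATAC and ChIP libraries were sequenced is unknown, and the input library was not analysed here.

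Counts were rounded and tested with edgeR 4.0.16 in R 4.3.3 (quasi-likelihood, TMM, filter by expression, Benjamini-Hochberg over all 13193 tested genes); the fit was tested on simulated data. Left out were 25 identifiers turned into dates (0.265% to 0.281% of fragments) and 13 genes with a failed estimate. ATAC peaks were joined at an overlap of at least 1 bp. Gene spans and promoter windows are those of RefSeq, GRCm38.p6, and 12540 tested genes matched a span by symbol. Alternatives used limma 3.58.1 and DESeq2 1.42.0. Named genes were the 10 receptor genes, up to 5 called members of each list by size of change, Foxp3, Tcf7 and the 3 nearest genes to Ctla4 and Pdcd1 (mean FPKM at least 5). Other partners and list members named were chosen after their values were seen. The receptor genes and lists were chosen with earlier results of these data known.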

Additional observations from a re-analysis of the deposited data

How the results depend on the processing

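The directions of the 9 called receptor genes were kept under every alternative that gave them a value, and their calls too, except for Cd200 as given in the report (log2 changes of -0.43 with WT replicate 2 alone for WT, -0.50 in limma on log2(FPKM + 0.1) and -0.48 in limma on log2(FPKM + 1) with no filter). Of 147 values of receptor genes under alternatives 143 kept direction and side of the threshold. Klrc1 fell below the FPKM filter of limma and has a value there only with no filter, 1.11 against 4.18 in edgeR. Havcr2 was 2.03 on log2(FPKM + 1), 3.14 on log2(FPKM + 0.1) and 1.92 after quantile normalization, against 3.51; a pseudocount shrinks the changes of low genes. Cd160 turned to 0.02 without WT replicate 1, and was not called under any alternative. Leaving out 1 library at a time gave 1.79 to 2.12 for Ctla4, -1.57 to -1.36 for Pdcd1, 1.87 to 2.13 for Lag3, 2.96 to 3.79 for Havcr2, 2.65 to 2.96 for Tigit, 3.54 to 4.13 for Klrg1, 3.72 to 4.75 for Klrc1, -3.36 to -2.89 for Cd96, -0.26 to 0.02 for Cd160 and -0.67 to -0.45 for Cd200. Over all tested genes it gave 2688 to 3583 higher and 2417 to 3364 lower.

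All tested genes called higher numbered 2079 in limma on log2(FPKM + 1), 2028 on log2(FPKM + 0.1), 2127 with no filter, 1831 after quantile normalization and 1954 with WT replicate 2 alone for WT; those called lower numbered 1808, 1765, 1931, 2211 and 1631 in the same order, so that lower calls outnumbered higher ones after quantile normalization. Lower ligand genes numbered 0 in limma on log2(FPKM + 1), on log2(FPKM + 0.1) and after quantile normalization, where the FPKM filter left out Pvrl2 and Cdh1. With no filter 2 were lower. With WT replicate 2 alone for WT 1 was lower and 4 higher. Lower adaptor genes numbered 2 in limma with no filter and with WT replicate 2 alone for WT, and lower transcription factor genes 4 in limma on log2(FPKM + 0.1) and with that library. With 1 library left out, lower counts ran from 3 to 7 for other inhibitory receptors, 2 to 5 for ligands and 2 to 4 for adaptors. The median change of all genes was -0.226 in DESeq2 and -0.22 with no filter on counts, where many more low genes enter.

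Regions open in every library numbered 20 with 20 kb added and 7 at a reciprocal overlap of 50%, where gained regions were 7; with 0 kb added 1 region was gained. With peaks at a deposited -log10 q of at least 10 none of the 3 classes held a region (0 common, 0 lost, 0 gained). Because scores and coordinates seem not to match, this cut cannot show which regions are strong. TCF1 peaks numbered 3, at 3 genes and all 3 in open regions, with 0 kb added. With the deposited replicate number as a replicate block the changes ran from -3.12 for Cd96 to 4.20 for Klrc1. No call of a receptor gene changed, and the edgeR adjusted p values of the 9 called genes were lower. Same-numbered libraries deviated together at correlations of 0.122, -0.027 and 0.09. WT replicates 1 and 3 matched the CAT library of the same number best, and WT replicate 2 matched CAT replicate 3. Whether same-numbered libraries share a batch was not tested. Beyond the genes that a filter left out, the cause of these shifts was not tested. The number of libraries limits the ATAC comparison, and the few fragments of Klrc1 in WT its change.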
